A study of Mus musculus with 594 samples.

Results

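The compound BRD-A94377914 was followed at 3 µM in a pair of mouse pancreatic endocrine lines, αTC1 and βTC3, for 1, 6 and 24 h, and gene expression was read on Affymetrix arrays. The arrays were chosen by their titles, all that name this compound, which gave 18 of the 594 arrays of the series, and they were set against the 76 arrays of the solvent DMSO from the same line and time. Per line and time there were 3 arrays of the compound, against 14 of DMSO in αTC1 at each time and, in βTC3, 12, 10 and 12 of DMSO at 1, 6 and 24 h. The whole series tested 29 compounds aimed at chromatin enzymes, each at 1 dose. BRD-A94377914 is given by code name only, and the labels name no target for it.

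αTC1 makes glucagon and βTC3 makes insulin. Both are established lines from tumours of transgenic mice in which a viral T antigen was driven by the glucagon promoter (αTC1) or the insulin promoter (βTC3), so both divide in culture, unlike most adult islet cells. All groups, DMSO included, were grown in low-glucose medium with serum and plated 24 h before treatment. The labels do not say that replicates came from separate cultures, so p-values measure only the spread between these arrays, which may be technical.

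DNA in the nucleus is wound on histones, and enzymes that add or remove acetyl and methyl groups on histones or DNA help set which genes are read. Alpha cells release glucagon, which raises blood glucose, and beta cells release insulin, which lowers it. Each identity is held by transcription factors, among them Pdx1, Nkx2-2 and Nkx6-1 in beta cells and Irx1, Irx2 and Pou3f4 in alpha cells. Dividing cells switch on genes for DNA synthesis before the chromosomes are copied, and genes for chromosome segregation before mitosis.

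Levels below are log2 of the deposited array intensity, and a change is the log2 difference of BRD-A94377914 minus DMSO with batch as a covariate, ± SE. A gene was called, and is said to have risen or fallen, at an adjusted p under 0.05 over all 11807 genes. Precision is limited by the number of arrays.

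Marker genes were checked against the labels. Over the DMSO arrays of all times the median Gcg level was 12.41 in αTC1 and 9.57 in βTC3, and Ins2 was at 4.24 in αTC1 and 13.25 in βTC3. Irx1 (7.38) and Pou3f4 (6.55) marked αTC1, and Pdx1 (9.35) and Pcsk1 (10.08) marked βTC3. Other listed markers did not separate the lines that way, since the alpha cell genes Ttr (11.50 in αTC1, 12.87 in βTC3) and Dpp4 (2.88, 4.39) were higher in βTC3 and the beta cell gene Neurod1 (10.65, 10.42) was slightly higher in αTC1. The beta cell glucose transporter Slc2a2 and the peptide Ucn3 lay near 3 in both lines, in the lowest 25% of gene means (under 3.19), and βTC3 also carried the hormones Sst (12.69) and Npy (12.97). The 14 markers of non-endocrine cells summed to intensities of 155 to 240 with BRD-A94377914 and 162 to 238 with DMSO in αTC1, and 111 to 123 and 108 to 126 in βTC3. Of these, Ptprc, Pecam1, Cdh5 and Col3a1 had medians under 3 in every group, while in αTC1 the exocrine gene Cela1 was at 5.06 with BRD-A94377914 and 6.22 with DMSO and the macrophage marker Cd68 at 4.54 and 4.05.

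A pair of BRD-A94377914 arrays stood apart. In αTC1 at 24 h, replicate 1 had only 7 genes at least 2-fold from the DMSO arrays of its batch. Replicates 2 and 3 had 455 and 293. DMSO arrays had 7 to 80 (median 29), but counted from the median of the other DMSO arrays of all batches. The Rsad2 level of replicate 1 was 5.19, inside the DMSO range, against 9.43 and 8.81 on the other replicates. In αTC1 at 1 h, replicate 2 carried transcripts typical of βTC3. Its Ins2 level was 9.63, against 3.83 and 4.22 on replicates 1 and 3 and 3.35 to 7.75 in DMSO, or 8.13% of the βTC3 intensity. Sst and Npy reached 3.53% and 2.45% on that array (genes chosen after their levels were seen). Results at these points are given with and without the array, and where the transcripts came from was not tested.

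**Figure D1:**
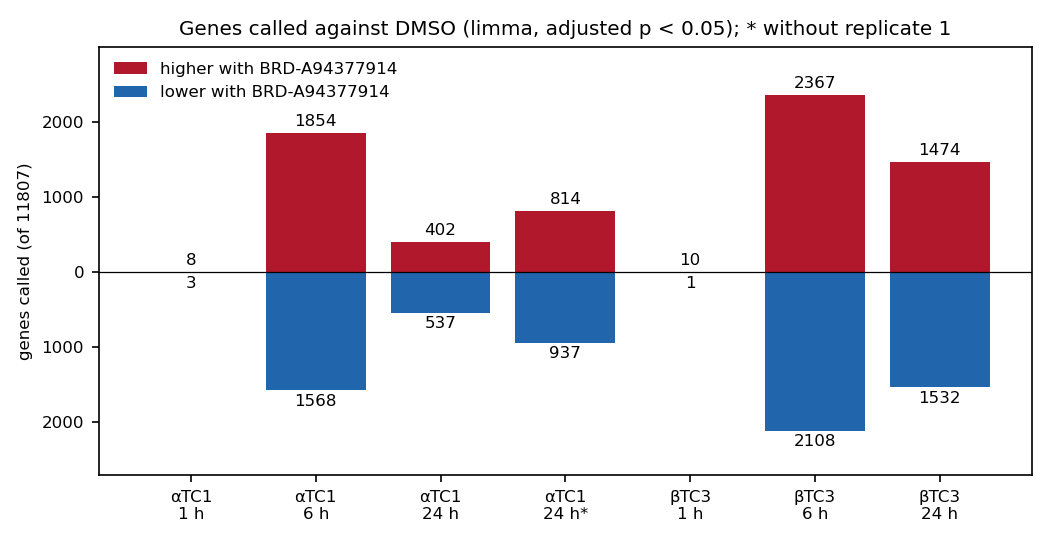
Number of genes called higher (bars above 0) and lower (bars below 0) with BRD-A94377914 than with DMSO, by line and time, with αTC1 at 24 h also shown without replicate 1. Bars at 1 h stand for 11 genes in each line, against 3422 in αTC1 and 4475 in βTC3 at 6 h.

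Few genes passed the test after 1 h and far more after 6 h, as the bar chart of called genes shows. At 1 h 11 genes were called in each line, 0.0932% of those tested. They were 8 higher and 3 lower in αTC1 (0.0678% and 0.0254%) and 10 higher and 1 lower in βTC3 (0.0847% and 0.00847%). At 6 h BRD-A94377914 raised 1854 genes and lowered 1568 in αTC1 (29.0% of genes called), and raised 2367 and lowered 2108 in βTC3 (37.9%). At 24 h 402 were higher and 537 lower in αTC1 (7.95%), or 814 and 937 (14.8%, that is 6.89% and 7.94%) without replicate 1. Without replicate 2 or 3 the αTC1 count was 82 or 147. In βTC3 1474 were higher and 1532 lower at 24 h (25.5%). Changes of at least 2-fold in called genes numbered 216 up and 197 down in αTC1 and 390 up and 378 down in βTC3 at 6 h. At 24 h they were 42 and 19 in αTC1, 134 and 113 without replicate 1, and 152 and 128 in βTC3. With each array centred on its median, which moved the median of all genes by -0.10, the αTC1 split at 6 h became 1441 up and 2347 down.

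Among the first genes to move was Txnip, which codes for a thioredoxin-binding protein that restrains glucose uptake. At 1 h its level was 8.79, 8.41 and 8.27 in αTC1 with BRD-A94377914, against 6.47 to 7.94 (median 7.26) with DMSO. In βTC3 it was 8.35, 8.54 and 8.53, against 6.46 to 8.07 (median 7.43). The groups did not overlap in either line. Txnip rose by 1.32 ± 0.24 in αTC1 (2.50-fold, adjusted p = 0.00149) and 1.13 ± 0.14 in βTC3 (2.19-fold, adjusted p = 5.86e-08). In αTC1 the rise was 1.30 without replicate 2 (adjusted p = 0.0379) and 1.30 without replicate 3, where the call was lost (adjusted p = 0.0697).

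A few other genes changed at 1 h. Sertad3, a transcriptional coregulator, rose by 1.17 in αTC1 and 0.88 in βTC3, Clp1, an RNA kinase of pre-mRNA processing, by 1.02 and 0.68, and the zinc finger gene Zkscan14 by 0.94 and 0.59. With Txnip these were the 4 genes called higher in both lines. Calls in αTC1 also included Dll1, a Notch ligand (0.65), Fkbpl (0.76), Cdc42se1 (0.41) and Col26a1 (0.41) going up, and Trib3, a stress pseudokinase (-0.72), Riox1, a histone demethylase (-0.57), and Ccnl1, a splicing cyclin (-0.53), going down. In βTC3 the immediate early genes Ier3 (1.08), Junb (0.80) and Ier2 (0.76) rose, 3 of 20 on that list against 0.0847% of all genes, as did the repressor Tgif1 (0.95), Sap30, a subunit of the Sin3 deacetylase complex (0.55), and Mad2l1bp (0.50). Hjurp, the chaperone of the centromeric histone, fell by 0.91.

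Ier3 and Txnip in βTC3 kept their call whichever compound array was left out, whereas every αTC1 call was lost without replicate 3. Even so, the call of Ier3 was lost with no batch term (adjusted p = 0.460) and within the compound's batches (0.140), and that of Txnip in βTC3 with only BRD-A94377914 and DMSO arrays (0.104). Without αTC1 replicate 2, 6 genes were called there, Txnip, Sertad3, Clp1, Zkscan14, Armc7 and Ccnl1. No gene differed in its 1 h response between the lines by the interaction test of limma (0.00%), and 350 had an unadjusted p below 0.05. Of the genes raised at 1 h, 7 of 8 in αTC1 and 9 of 10 in βTC3 were raised again at 6 h, where 15.7% and 20.0% of all genes were higher.

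The largest rise at 6 h in αTC1 was of Rsad2, the gene of viperin, an antiviral enzyme known as an interferon target. Its level was 7.94, 8.58 and 8.60 with BRD-A94377914 and 4.12 to 5.05 (median 4.63) with DMSO, a change of 3.78 ± 0.19 (13.8-fold, adjusted p = 2.54e-27). In βTC3 it stood at 6.85, 7.13 and 7.26 with the compound and 3.67 to 4.35 (median 3.94) with DMSO, a change of 3.20 ± 0.18 (adjusted p = 2.69e-24). The groups were far apart in both lines, while at 1 h they overlapped (changes of 0.60 in αTC1 and -0.14 in βTC3, neither called).

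Because Rsad2 rose far in both lines, the 250 bases before its start are shown, from RefSeq on GRCm38.p6, minus strand, chr12:26456453-26456702, with the match to the interferon-stimulated response element in capitals.
Rsad2: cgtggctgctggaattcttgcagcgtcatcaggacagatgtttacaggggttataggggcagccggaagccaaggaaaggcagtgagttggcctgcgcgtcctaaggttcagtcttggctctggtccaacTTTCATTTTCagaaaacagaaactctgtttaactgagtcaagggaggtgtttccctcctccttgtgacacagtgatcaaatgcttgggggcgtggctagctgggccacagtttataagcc
The motif searched was GAAA, any 2 bases and again GAAA, on both strands, and the match starts 120 bases before the gene. It occurs in 2.74% of the 9430 promoters of tested genes and in 3.04% of all 27025 promoters of the table. A match is a description of the letters, not a site.

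Other members of the interferon list did not all follow at 6 h. Counting Rsad2, 7 of 13 measured genes rose in αTC1 at 6 h and none fell (15.7% of all genes were higher), with the signalling factor Stat2 at 1.03 (adjusted p up to 0.0786 with an array left out), Usp18 at 0.95 and the immunoproteasome subunit Psmb9 at 0.72. Of the 13, βTC3 had 5 higher and 3 lower, where 20.0% and 17.9% of all genes were, among them Irf7 (0.76) and Psmb9 (0.63) up and Usp18 (-0.44), Ifit2 (-0.49) and Psmb8 (-0.68) down. The calls of Usp18 and Ifit2 in βTC3 were lost with an array left out (adjusted p up to 0.147 and 0.180). Ifit1, a classic member, changed by 0.00 and 0.05. The median of the list was 0.39 in αTC1 at 6 h, against -0.01 over all genes. The list's median level takes no account of batch, unlike the changes. In αTC1 that level lay inside the DMSO range on each compound array, at 6 h (DMSO 3.32 to 4.17) and 24 h (3.29 to 3.88). In βTC3 it overlapped DMSO at 6 h. At 24 h it was 5.17, 5.20 and 5.51 there, above every DMSO array (3.94 to 4.85).

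Several other genes led the rises of αTC1 at 6 h. The small GTPase gene Rras was at 6.15, 5.61 and 6.07 with BRD-A94377914, against 2.78 to 3.30 with DMSO, a change of 2.98 ± 0.13 from a level in the lowest 25% of gene means. Eaf2, a partner of the elongation factor ELL, rose by 2.62, Rab40b by 2.72, the kinase scaffold Akap12 by 2.51 and Slc9a3r1, a scaffold below the plasma membrane, by 2.43. The iron exporter Slc40a1 rose by 2.15 and the lipogenic regulator Thrsp by 2.25. Gsta4, a glutathione transferase, was at 6.57, 5.25 and 6.44 with the compound and 3.56 to 4.14 with DMSO, without overlap.

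Kcnk2, a background potassium channel, showed the deepest fall of αTC1. Its level was 5.18, 4.39 and 4.71 with BRD-A94377914 and 7.70 to 8.55 (median 8.04) with DMSO, a fall of 3.40 on the log2 scale (10.5-fold, adjusted p = 1.27e-27). The amino acid transporter Slc38a4 fell by 2.52, the mitochondrial tRNA amidotransferase subunit Qrsl1 by 2.31, the DNA break sensor Nbn by 2.13 and Hal, which breaks down histidine, by 2.00. G6pc2, the islet glucose-6-phosphatase subunit, fell by 2.13.

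βTC3 had partly other leaders at 6 h. Insl6, an insulin-like peptide gene, was at 7.13, 7.25 and 7.14 with BRD-A94377914 and 3.65 to 4.33 (median 4.02) with DMSO, a rise of 3.24 ± 0.16 (9.47-fold). Ptger4, a receptor for prostaglandin E, rose by 3.13, Eaf2 by 3.17, the phospholipase gene Abhd3 by 2.75, the transcription factor Mitf by 2.50 and the lipid kinase Pi4k2b by 2.44. Tk1, thymidine kinase, showed the deepest fall, to 5.12, 4.45 and 4.64 with the compound, against 7.52 to 8.18 (median 7.90) with DMSO (-2.96 ± 0.19). The fructose transporter Slc2a5 fell by 2.80, the galanin receptor Galr1 by 2.75, the homeobox gene Meox2 by 2.56 and the SWI/SNF subunit Bcl7b by 2.44. Rbpms fell by 2.65, but another probe set of it went the opposite way.

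**Figure D2:**
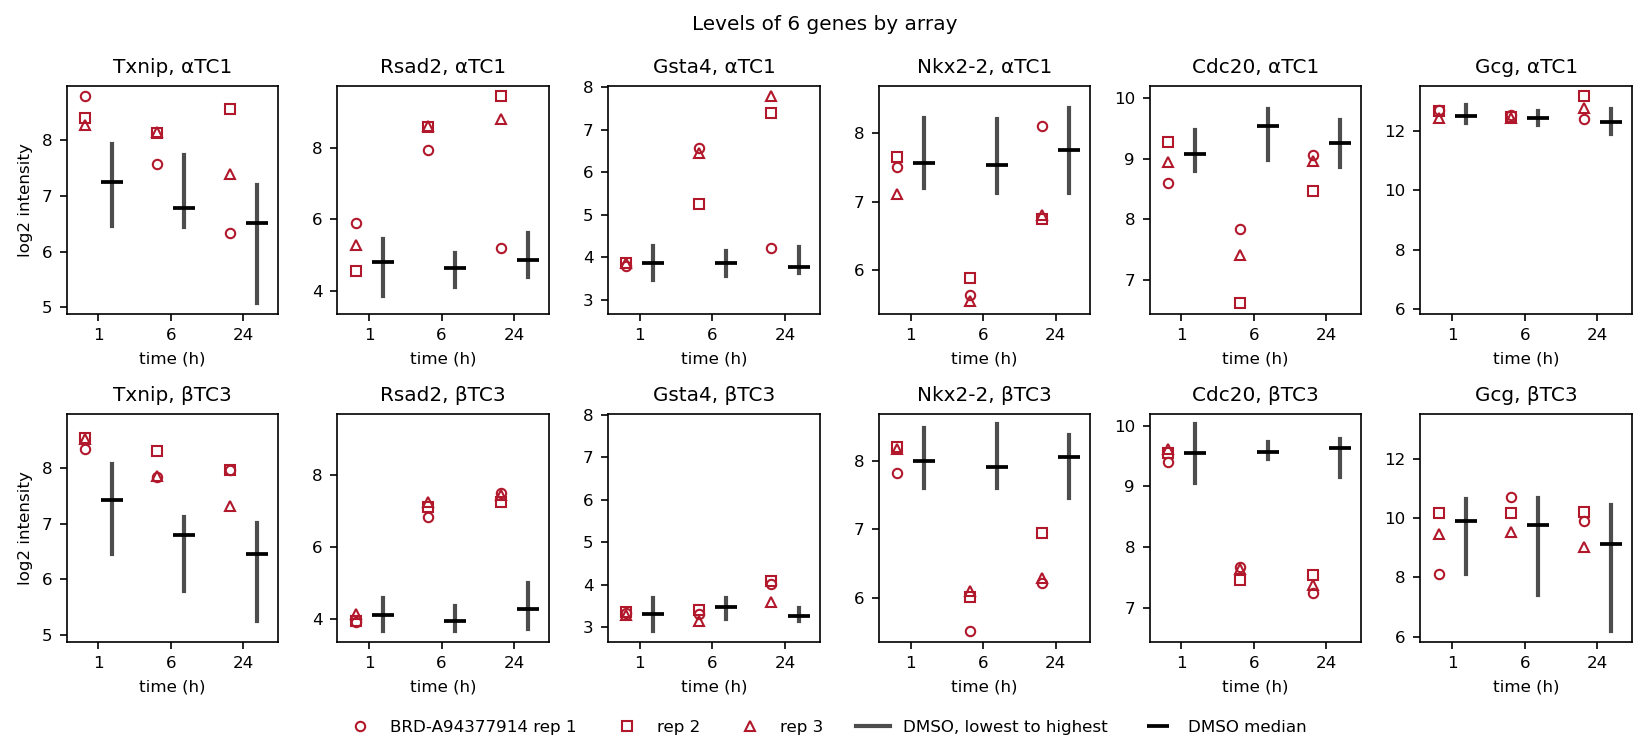
Log2 intensity of Txnip, Rsad2, Gsta4, Nkx2-2, Cdc20 and Gcg in αTC1 (upper row) and βTC3 (lower row) by time in hours, with a symbol for each of the 3 BRD-A94377914 arrays and, to their right, a bar over the DMSO range with a dash at its median. Rsad2 lies among the DMSO levels or close to them at 1 h and far above them at 6 h and 24 h, apart from αTC1 24 h replicate 1 at 5.19.

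The 2 lines were also compared directly at 6 h through the interaction term, which called 1629 genes (13.8%), 847 with a more positive change in αTC1 (7.17%) and 782 in βTC3 (6.62%). With centred arrays 36.1% of the calls were more positive in αTC1, against 52.0% here. Kcnk2 differed most (-3.40 ± 0.20). In βTC3 it was at 2.86, 3.05 and 3.14 with the compound and 2.83 to 3.40 with DMSO, a level in the lowest 25% of gene means. Ptger4 (-2.83) and Insl6 (-2.79) rose more in βTC3 than in αTC1, where Ptger4 changed by 0.31 without passing the test and Insl6 by 0.46 (adjusted p = 0.0199, up to 0.175 with an array left out). Tacc2, a centrosomal protein gene, went opposite ways, up by 1.41 in αTC1 and down by 1.27 in βTC3 (difference 2.68 ± 0.27, adjusted p = 6.64e-15). Of the genes called at 6 h, 1261 were higher in both lines (68.0% of the αTC1 genes and 53.3% of the βTC3 genes, where 20.0% of all genes were higher), and 1048 were lower in both. Across all genes the 6 h changes of the lines had a Pearson r of 0.67, a description over genes, which are not independent.

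Transcription factors of islet identity were lower at 6 h. Nkx2-2 was at 5.64, 5.88 and 5.55 in αTC1 with BRD-A94377914, against 7.12 to 8.21 (median 7.54) with DMSO, and at 5.51, 6.01 and 6.10 in βTC3, against 7.60 to 8.54 (median 7.91). It fell by 1.97 and 2.34, with no overlap in either line. Pdx1, which drives the insulin gene, was at 8.16, 8.26 and 8.15 in βTC3 with the compound and 9.14 to 9.63 with DMSO, a fall of 1.41 (2.65-fold, adjusted p = 2.55e-14). Of 11 beta cell genes 9 fell in βTC3, against 17.9% of all genes, with a list median of -0.98. They included G6pc2 (-2.27), Neurod1 (-1.27), the incretin receptor Glp1r (-1.23), Nkx6-1 (-0.98) and the prohormone convertase Pcsk1 (-0.68).

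Hormone transcripts moved little at 6 h. Ins2 was at 13.30, 13.07 and 13.08 in βTC3 with the compound and 13.19 to 13.49 with DMSO, a fall of 0.15 (adjusted p = 0.0313) with overlapping groups. That level is close to the top of the scale, and the call was lost when 1 array was left out (adjusted p up to 0.126). Gcg in αTC1 stayed at 12.54, 12.49 and 12.44, against 12.21 to 12.67 (-0.05, not called). Of 7 alpha cell genes 3 fell in αTC1 (13.3% of all genes were lower), and all 3 are regulators, Irx1 (-1.03), Pou3f4 (-0.82) and Irx2 (-0.56). Irx1 was at 6.53, 6.21 and 6.38 with BRD-A94377914, below all DMSO arrays (7.07 to 7.64).

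At 24 h neither Pdx1 nor G6pc2 passed the test with all arrays, though Pdx1 was raised in αTC1 without replicate 1 (0.97, against 0.57 with it). Pdx1 in βTC3 was at 9.07, 9.24 and 8.88 with the compound, inside the DMSO range of 8.55 to 9.73 (-0.33, adjusted p = 0.0696). G6pc2 changed by -0.04 in βTC3 and 0.37 in αTC1 at 24 h, and its difference between 24 h and 6 h was 2.23 ± 0.25 in βTC3 and 2.50 ± 0.32 in αTC1. Nkx2-2 still fell in βTC3, to 6.22, 6.94 and 6.29, against 7.46 to 8.38 with DMSO (-1.60 ± 0.20). In αTC1 its change was -0.56 (not called), and it fell by 0.89 without replicate 1. Neurod1, which had fallen at 6 h, was raised by 0.56 in βTC3 at 24 h (adjusted p = 0.0126, up to 0.121 with an array left out). Gcg in αTC1 rose by 0.43 (adjusted p = 0.00713), with 12.41, 13.18 and 12.77 against 11.90 to 12.74, and by 0.59 without replicate 1, but its call was lost without another array (adjusted p up to 0.316).

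Cell division genes fell at 6 h in both lines. Of 22 mitosis genes 18 fell and none rose in αTC1 at 6 h (13.3% of all genes were lower), with a list median of -0.84. In βTC3 19 fell and none rose at 6 h (17.9%), with a median of -1.13. Cdc20, the activator of the anaphase-promoting complex, was at 7.84, 6.61 and 7.41 in αTC1, against 8.98 to 9.82 with DMSO (-2.14 ± 0.14). In βTC3 it was at 7.67, 7.45 and 7.64, against 9.45 to 9.74 (-1.83 ± 0.11). The kinase genes Plk1 (-1.47 in αTC1, -1.63 in βTC3) and Aurka (-1.43, -1.50) and the centromeric histone Cenpa (-1.54, -1.71) fell in both lines. In such bulk samples fewer dividing cells and less RNA per cell cannot be told apart.

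At 24 h the lines parted. In βTC3 20 of 22 mitosis genes fell and none rose (13% of all genes were lower), with a median of -0.94. Cdc20 was at 7.24, 7.54 and 7.38 with BRD-A94377914 and 9.15 to 9.79 (median 9.64) with DMSO, a fall of 2.17 (4.49-fold, adjusted p = 1.76e-19). Ube2c, the ubiquitin-conjugating enzyme that works with it, was at 8.69, 8.99 and 8.99, against 10.61 to 11.18 (-2.05 ± 0.13). In αTC1 none of the 22 fell and 1 rose, Ttk (0.49, adjusted p = 0.0436, up to 0.883 with an array left out), with a median of 0.02. Without replicate 1 the αTC1 median was 0.06, with Ttk higher and Ube2c lower (-0.56).

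This difference between lines was tested itself. At 24 h 18 of 22 mitosis genes had a more positive change in αTC1 than in βTC3, and none a more negative one, with a median difference of 1.04, against 3.74% of all genes. The count was also 18 without αTC1 replicate 1. Cdc20 differed by 1.67 ± 0.26 (1.54 without that array) and Plk1 by 1.33 (1.28 without it). The list's median level on the αTC1 arrays was 7.81, 7.01 and 7.64 at 6 h, below the DMSO range of 8.0 to 8.98, and 8.15, 8.15 and 8.59 at 24 h, inside the range of 7.96 to 8.76. On the βTC3 arrays it was 7.78, 7.33 and 7.54 at 6 h (DMSO 8.78 to 8.98) and 7.76, 7.77 and 7.84 at 24 h (DMSO 8.62 to 9.09). Between 6 h and 24 h the responses of 1219 genes differed in αTC1 (10.3%) and of 2770 in βTC3 (23.5%). Of the 22 genes 16 differed upward in αTC1 (4.13% of all genes upward and 6.19% downward), 16 also without replicate 1. In βTC3 2 differed upward and 4 downward (10.8% and 12.7% of all genes).

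**Figure D3:**
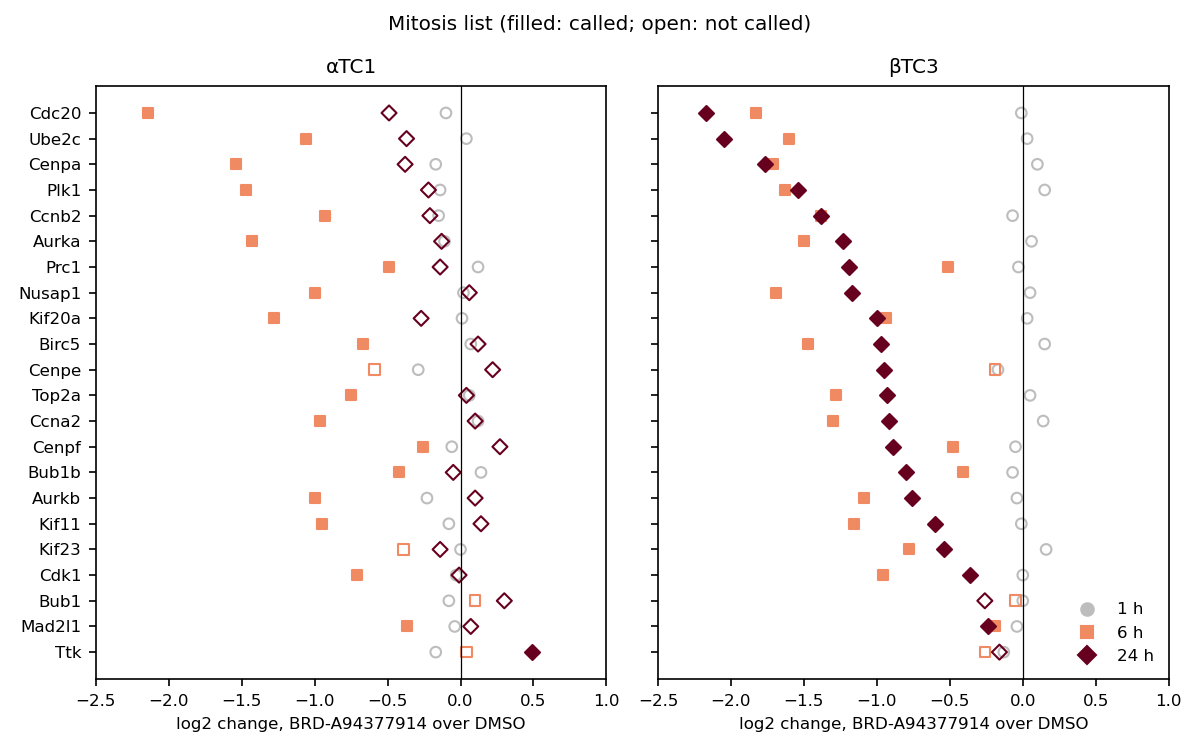
Log2 change, BRD-A94377914 over DMSO, of each of the 22 mitosis genes in αTC1 (left) and βTC3 (right) at 1, 6 and 24 h, filled where called and open where not. In αTC1 the 6 h points lie left of 0 (median -0.84) and the 24 h points around it (0.02), and in βTC3 both lie left of 0 (-1.13 and -0.94).

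The promoters of Cdc20 and Ube2c are shown because both genes carry the difference between lines at 24 h. They are the 250 bases before each start in RefSeq on GRCm38.p6, at chr4:118437344-118437593 (minus strand) and chr2:164769679-164769928 (plus strand), with matches on either strand to the cell-cycle homology region TTTGAA and to the CCAAT box in capitals.
Cdc20: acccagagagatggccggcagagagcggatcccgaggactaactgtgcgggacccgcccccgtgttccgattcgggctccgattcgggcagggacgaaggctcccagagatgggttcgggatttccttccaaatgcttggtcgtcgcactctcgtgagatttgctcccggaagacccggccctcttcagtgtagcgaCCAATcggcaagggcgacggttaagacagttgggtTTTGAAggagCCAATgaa
Ube2c: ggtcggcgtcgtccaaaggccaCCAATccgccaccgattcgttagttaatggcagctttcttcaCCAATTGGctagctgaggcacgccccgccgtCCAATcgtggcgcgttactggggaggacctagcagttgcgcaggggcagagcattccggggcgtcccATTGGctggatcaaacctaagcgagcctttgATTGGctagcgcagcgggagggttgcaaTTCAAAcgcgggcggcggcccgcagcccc
In Cdc20 the TTTGAA match starts 18 bases before the gene, with CCAAT at 53 and 8 bases. In Ube2c it starts at 29 bases, with 6 CCAAT matches, of which those at 186 and 183 bases overlap. Of the 19 mitosis genes with a promoter in the table, 6 hold both motifs (31.6%), against 4.18% of promoters of tested genes. CCAAT, with or without TTTGAA, is in 16 of the 19 (84.2%), against 36.1%.

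DNA replication genes fell at 6 h, and most did not pass the test at 24 h. At 6 h 18 of 23 fell and 1 rose in αTC1 (13.3% of all genes lower and 15.7% higher), and 20 fell and 1 rose in βTC3 (17.9% and 20.0%), with medians of -0.40 and -0.80. The ribonucleotide reductase genes Rrm2 (-1.34 in αTC1, -1.68 in βTC3) and Rrm1 (-1.0, -1.61) and the helicase subunit Mcm7 (-1.09, -1.33) fell (Rrm1 in αTC1 with an adjusted p up to 0.196 when an array was left out), while Orc1, of the origin recognition complex, rose (0.65, 0.81). At 24 h 1 of 23 fell in αTC1 and 6 fell in βTC3, where 4.55% and 13% of all genes did, with medians of 0.07 and -0.06. Between 6 h and 24 h 15 of 23 differed upward in βTC3 (10.8% of all genes) and 11 in αTC1 (4.13%), 9 without replicate 1. Of the inhibitors of cyclin-dependent kinases, Cdkn1a did not pass the test at 6 h in βTC3 (0.21, with probe sets of opposite sign), and Cdkn1c rose there by 0.55 while Cdkn1b fell by 0.84.

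**Figure D4:**
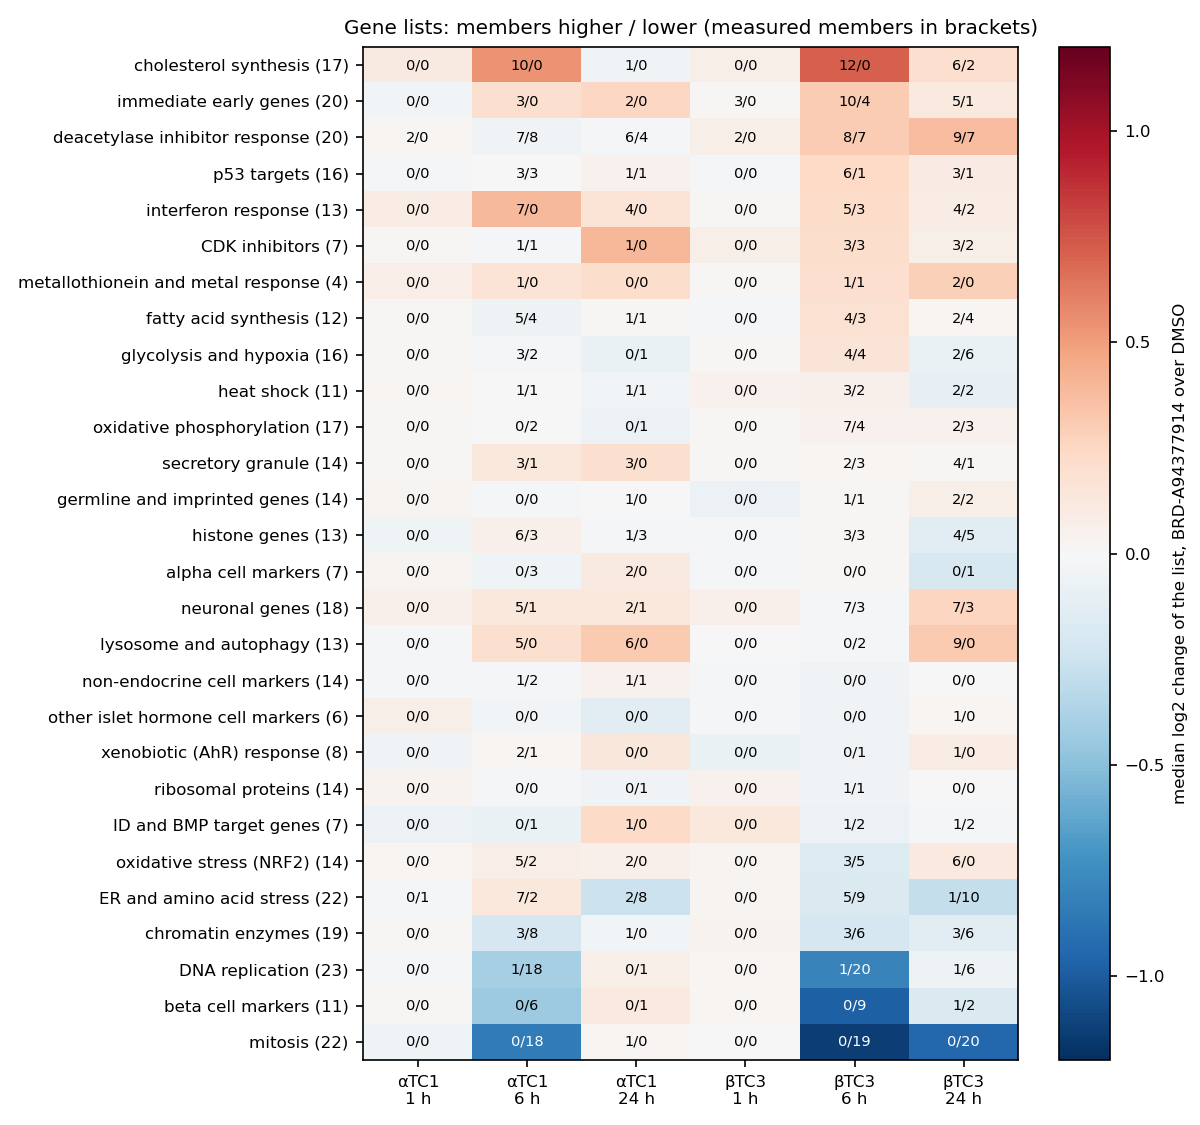
Median log2 change, BRD-A94377914 over DMSO, of 28 gene lists (rows) by line and time (columns) as colour, with the members called higher and lower as numbers. In βTC3 at 6 h the mitosis list is at -1.13 (0 higher and 19 lower) and the cholesterol synthesis list at 0.72 (12 and 0). The list named for a deacetylase inhibitor response was chosen on these data.

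Cholesterol synthesis genes went the other way at 6 h. In αTC1 10 of 17 rose and none fell, with a median of 0.54, and in βTC3 12 rose and none fell, with a median of 0.72, where 15.7% and 20.0% of all genes were higher. The sterol reductase Dhcr7 rose by 0.94 in αTC1 and 1.46 in βTC3, the demethylase Msmo1 by 0.96 and 0.81, and lanosterol synthase Lss by 0.91 in both. Squalene epoxidase Sqle rose by 0.60 and 0.83. The list's median level, which unlike the changes takes no account of batch, overlapped DMSO at 6 h in both lines. It was 7.80, 8.10 and 7.58 in αTC1 (DMSO 6.67 to 7.84). In βTC3 it was 8.08, 8.29 and 8.57 (DMSO 7.51 to 8.79). At 24 h 1 gene was raised in αTC1 (3.40% of all genes), the reductase Tm7sf2 (0.82), and 6 were raised and 2 lowered in βTC3 (12.5% and 13% of all genes), with Tm7sf2 at 1.66. Between 6 h and 24 h 7 genes differed downward in each line (6.19% of all genes in αTC1 and 12.7% in βTC3), 6 in αTC1 without replicate 1.

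Genes of chromatin enzymes themselves moved at 6 h. Hdac1, a histone deacetylase, was at 9.52, 9.20 and 9.23 in αTC1, against 8.36 to 8.66 with DMSO (0.84 ± 0.08). In βTC3 it was at 9.87, 9.64 and 9.33, against 8.77 to 9.15 (0.57 ± 0.08). Hdac11 (0.90 and 1.64) and Hdac5 (0.84 and 0.80) also rose in both lines. Dnmt1, the maintenance DNA methyltransferase, fell to 6.65, 6.22 and 6.41 in βTC3, against 7.38 to 8.02 (-1.54 ± 0.12), and by 0.54 in αTC1 with overlapping groups, a call lost when 1 array was left out (adjusted p up to 0.202). Dnmt3a (-1.09, -0.83), the acetyltransferase Kat2b (-1.09, -0.73) and the arginine methyltransferase Prmt1 (-0.69, -1.10) fell in both lines, Prmt1 in αTC1 not when an array was left out (adjusted p up to 0.357). Among the 19 listed genes the count in αTC1 was 3 higher and 8 lower, where 15.7% and 13.3% of all genes were. For βTC3 it was 3 higher and 6 lower, where 20.0% and 17.9% of all genes were. At 24 h Hdac1 was raised in βTC3 (0.42) and αTC1 (0.33, adjusted p = 0.0232, or 0.58 without replicate 1 and uncalled without another array), and Dnmt1 was back at -0.09 and 0.13, neither called.

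Of 13 histone genes 6 were higher and 3 lower in αTC1 at 6 h, where 15.7% and 13.3% of all genes were. In βTC3 3 were higher and 3 lower, close to the 20.0% and 17.9% of all genes. The linker histone H1f2 rose by 1.18 and 1.47, and the variant Macroh2a2 fell by 1.76 and 1.85. At 24 h the variant H2ax, which marks DNA breaks when phosphorylated, showed the largest fall of the list in both lines. In βTC3 it was at 7.03, 7.17 and 7.19, against 8.79 to 9.77 with DMSO (-2.2 ± 0.13). In αTC1 it was at 7.40, 5.47 and 6.07, against 7.05 to 7.91 (-1.23 ± 0.18, or -1.69 without replicate 1).

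In βTC3 at 24 h Rsad2 had the largest rise, at 7.51, 7.26 and 7.45, against 3.71 to 4.99 with DMSO (3.20 ± 0.19). Dpyd, which breaks down pyrimidines, was at 6.75, 6.08 and 6.38, against 2.81 to 3.64 (3.12 ± 0.26, 8.67-fold). At 6 h it had been at 3.58, 3.29 and 3.30, against 2.90 to 3.32 (0.20, not called), and the difference between the times was 2.92 ± 0.33 (adjusted p = 5.63e-12). The glutathione transferases Gstk1 (2.91) and Gstt1 (2.44) and the reductase Ptgr1 (2.53), all enzymes that handle reactive compounds, rose, as did Rida, an imine deaminase (2.66), and the cadherin Cdh17 (2.63). Insl6 remained raised by 2.32.

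The deepest falls of βTC3 at 24 h were led by H2ax, Cdc20 and Ube2c, given above, and by Rbpms (-2.35), whose probe sets disagreed. Bcat1, a transaminase of branched-chain amino acids, was at 4.43, 4.75 and 4.25, against 6.18 to 7.34 with DMSO (-2.14 ± 0.20). The complement gene C1qa fell by 1.87, the serpin gene Serpina10 by 1.96, the adaptor subunit Ap4s1 by 1.91 and Acyp2, an acylphosphatase, by 1.91.

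In αTC1 at 24 h the changes named here came from replicates 2 and 3, with replicate 1 in or near the DMSO range. Rsad2 changed by 2.95 ± 0.38 (4.29 without replicate 1) and was highest there in the whole set, at 9.43 and 8.81. Gsta4 was at 4.21, 7.40 and 7.78, against 3.63 to 4.24 with DMSO (2.71 ± 0.29, or 3.82 without replicate 1). Alpha globin Hba-a1 (1.97, or 2.69), the selenium carrier Selenop (1.89, or 2.79), the casein gene Csn3 (1.62, or 2.36) and galectin Lgals1 (1.55, or 2.2) also rose. Falls were led by the crystallin gene Cryba2 (-1.45, or -2.08), the immunoproteasome subunit Psmb10 (-1.44, or -2.10) and Bcat1 (-1.42, or -2.23). The call of Cryba2 was lost without one of the other arrays (adjusted p up to 0.122), and that of Bcat1 likewise (up to 0.0647). Cd68, listed as a macrophage marker and also a lysosomal protein, rose by 1.22 (adjusted p = 0.00194, up to 0.153 with an array left out), while the immune marker Ptprc stayed at -0.03. The exocrine gene Cela1 fell by 0.71 (adjusted p = 0.0345, up to 0.733 with an array left out), and the part of other cells in these values was not tested.

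Lysosomal genes rose at 24 h in both lines, 9 of 13 in βTC3 and 6 of 13 in αTC1 (12.5% and 3.40% of all genes), with medians of 0.31 in each and no falls. The list's median level, which unlike the changes takes no account of batch, overlapped DMSO in both lines. It was 9.43, 9.46 and 10.05 in βTC3 (DMSO 9.07 to 10.06, median 9.80). In αTC1 it was 8.85, 9.36 and 9.77 (DMSO 8.52 to 9.13). The protease Ctsl rose by 0.76 and 0.65, and the membrane proteins Lamp2 by 0.42 and 0.48 and Lamp1 by 0.17 and 0.31. Without αTC1 replicate 1 the αTC1 count was again 6, but the calls of Ctsl and Lamp2 there were lost without another array (adjusted p up to 0.121 and 0.126). Between 6 h and 24 h 9 genes differed upward in βTC3 (10.8% of all genes) and 1 in αTC1 (4.13%).

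Stress genes of amino acid supply and the endoplasmic reticulum were lower on balance at 24 h. Of 22 genes 8 fell and 2 rose in αTC1 (4.55% and 3.40% of all genes), and 10 fell and 1 rose in βTC3 (13% and 12.5%). The serine pathway enzyme Shmt2 (-0.97 in αTC1, -0.46 in βTC3), the transporter Slc7a5 (-0.52, -0.79) and Trib3 (-1.09, -0.82) fell in both lines. Slc7a5 had risen at 6 h, by 0.87 and 0.78. The oxidoreductase Ero1b rose at 24 h, by 1.24 and 0.55. With an array left out, the αTC1 calls of Shmt2 (adjusted p up to 0.177), Ero1b (0.119), Slc7a5 (0.777) and Trib3 (0.219) were lost, and so was that of Trib3 in βTC3 (0.0616).

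Responses at 24 h differed between the lines for 910 genes (7.71%, with 3.74% more positive in αTC1 and 3.96% in βTC3), or 1039 without αTC1 replicate 1. Dpyd differed most (-3.12 ± 0.30), being at 2.78, 3.06 and 2.66 in αTC1 with the compound and 2.55 to 2.97 with DMSO. Tesc, a calcium-binding protein gene, rose by 2.16 in βTC3 from a DMSO median of 5.07, and was at 11.57, 11.42 and 11.41 in αTC1, against 11.45 to 11.84 with DMSO. Mlxipl, a glucose-responsive transcription factor, went opposite ways, up by 0.93 in αTC1 (1.39 without replicate 1, and not called without another array) and down by 1.26 in βTC3 (difference 2.19 ± 0.24). Of the genes raised at 6 h, 15.4% were also raised at 24 h in αTC1 (27.1% without replicate 1) and 33.1% in βTC3, where 3.40%, 6.89% and 12.5% of all genes were higher.

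BRD-A94377914 was then set against each of the 28 other compounds in the same fits. Summed over lines, the 3 compounds with the fewest called genes at 24 h were SAHA (vorinostat, a histone deacetylase inhibitor) with 216, BRD9773 with 747 and BRD6929 with 784, as a description that chose them. A gene called in both lines counts once for each. Doses differed, 3 µM for BRD-A94377914, 1.3 µM for SAHA, 10 µM for BRD9773 and 0.91 µM for BRD6929, so that dose and compound cannot be told apart. Without αTC1 replicate 1 the sums were 142 for SAHA, 625 for BRD9773 and 451 for BRD6929. Within a line the order at 24 h was another. In βTC3 pyroxamide had the fewest called genes, 3 (0.0254%), against 141 for SAHA, but it had 3341 in αTC1. In αTC1 BRD-K90919562 had the fewest, 7 (0.0593%), against 75 for SAHA, but it had 1279 in βTC3. Without replicate 1 the αTC1 counts of BRD-K90919562 and SAHA were 33 and 1.

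**Figure D5:**
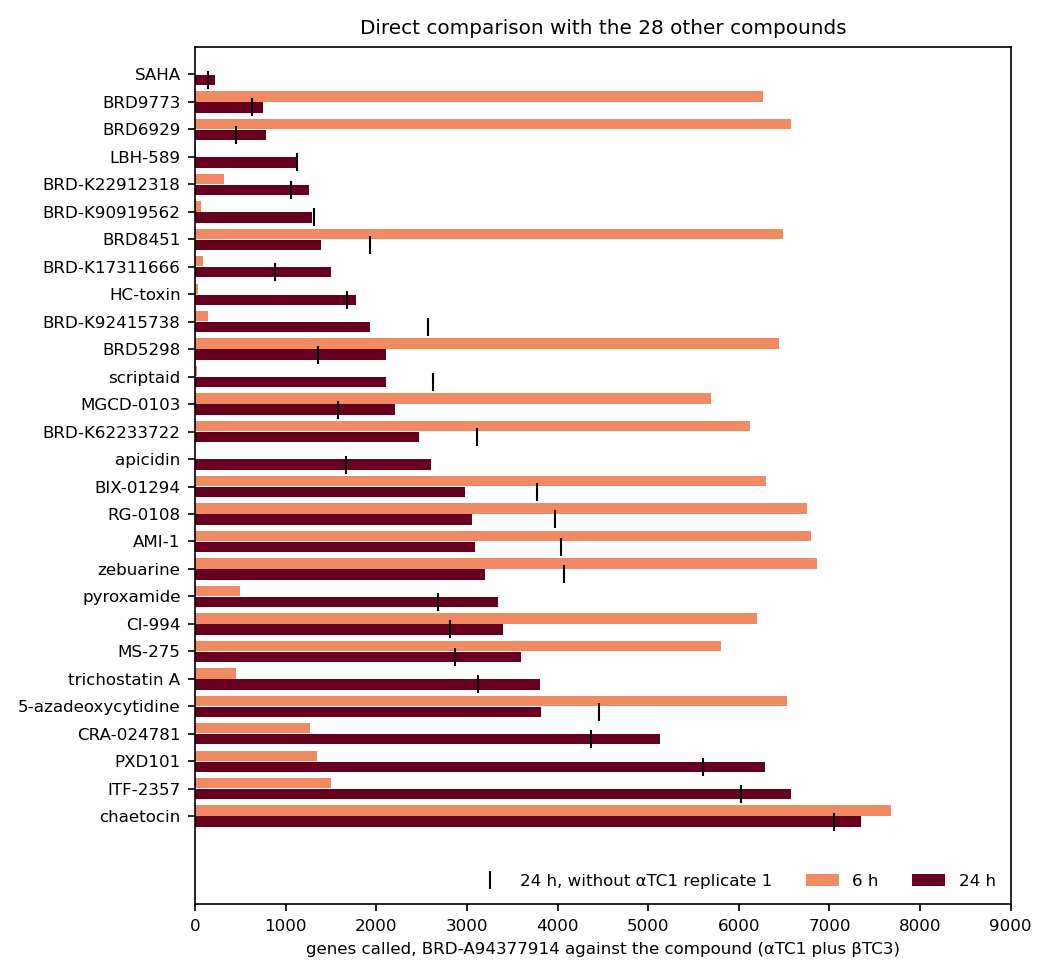
Genes called between BRD-A94377914 and each of the 28 other compounds, summed over αTC1 and βTC3, at 6 h and 24 h, with a tick for 24 h without αTC1 replicate 1. SAHA has 0 genes at 6 h and 216 at 24 h, and chaetocin 7682 and 7348.

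At 6 h no gene was called between BRD-A94377914 and SAHA in either line by limma, while 417 genes in αTC1 and 433 in βTC3 had an unadjusted p below 0.05. A missed threshold does not show that the compounds act alike. In neither line did a SAHA array share a batch with a BRD-A94377914 array, at 6 h or at 24 h. The contrasts with SAHA therefore rest on the batch term and could not be repeated within the compound's batches. The 95% interval of the difference lay within 2-fold for 11717 of 11807 genes in αTC1 and 11750 in βTC3. Rsad2 differed by 0.14 in αTC1 (interval -0.37 to 0.66) and 0.82 in βTC3 (0.35 to 1.30, not called). Nkx2-2 differed by 0.13 (-0.36 to 0.62) and -0.30 (-0.85 to 0.24). Against BRD9773 and BRD6929 the 6 h counts were 6270 and 6573 (21.8% and 21.4% of genes in αTC1, 31.3% and 34.3% in βTC3), led by genes such as Kcnk2 in αTC1 (-3.03 and -3.18) and Insl6 in βTC3 (3.46 and 3.04). Counts at 6 h were also low against apicidin (1), LBH-589 (6), scriptaid (23) and HC-toxin (28), and high against MS-275 (5801), CI-994 (6198) and AMI-1 (6797).

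At 24 h mitosis genes set BRD-A94377914 apart from SAHA in βTC3, in a contrast that again rests on the batch term. Of 22 genes 12 were lower with BRD-A94377914 and none higher, against 0.830% of all genes, with a median difference of -0.63. Ube2c differed by -1.19 (interval -1.53 to -0.84, adjusted p = 2.42e-05), Cdc20 by -1.13 (-1.52 to -0.74), Plk1 by -1.07 (-1.50 to -0.63) and Tk1 by -1.15 (-1.63 to -0.68). Rsad2 was higher with BRD-A94377914, by 0.95 (0.44 to 1.45). The retinoid-binding gene Crabp2 (1.42), the aldolase Aldoc (1.25) and the corepressor Tle6 (1.22) were higher as well. With an array left out the calls of Crabp2 (adjusted p up to 0.167) and Aldoc (up to 0.182) were lost, as they were with the replicate block (0.0702 and 0.122), and that of Aldoc also with no batch term (0.338). In all 141 genes differed in βTC3 at 24 h (1.19%), 43 higher (0.364%) and 98 lower, so 30.5% were higher, against 53.1% with centred arrays.

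In αTC1 at 24 h 75 genes differed from SAHA (0.635%, with 0.195% higher and 0.440% lower), which had 2 arrays there, and 1 gene without BRD-A94377914 replicate 1. Gsta4 differed by -2.07 with all arrays and by -0.94 without that one (adjusted p = 0.495). Against BRD9773 and BRD6929 in βTC3 at 24 h 464 and 363 genes differed (3.93% and 3.07%), with Dpyd higher by 1.63 and 1.60 and C1qa lower by 1.42 and 1.28 with BRD-A94377914. The C1qa calls were lost with no batch term (adjusted p = 0.224 and 0.336). In αTC1 the counts were 283 and 421 (2.40% and 3.57%), or 161 and 88 without replicate 1.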

How the data were processed

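RNA from 594 samples was read on Affymetrix HT mouse arrays. Probe set intensities were deposited by the authors after RMA, as the submitters' processing notes say, and batch correction is not given in the sources used here. The deposited intensities lie on a linear scale (3.962 to 13635), where log2 values had been assumed, so log2 was taken here. Of 22716 probe sets 18003 carried 1 gene symbol, and the 287 with several and 4426 with none were left out. The probe set with the highest mean stood for each of 11807 genes, of which 4150 had more than 1.

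Groups came from the titles. Every array of a line and time, all compounds included, entered 1 fit in limma 3.58.1 (R 4.3.3) with batch as a fixed term and empirical Bayes variances, and joint fits gave differences between lines and times. The Benjamini-Hochberg adjustment ran over all genes of a comparison, and the code was tested on simulated data.

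The arrays, 28 gene lists, comparisons and rules were chosen with earlier results of these data known. The rule named the 10 largest called changes each way per line at 6 h and 24 h whose 3 arrays moved alike (5 at 1 h), the 6 largest differences, the 5 largest against each of 3 compounds, up to 4 called members per list, and a few genes always given. The text gives some of these, and some other list members, picked after their values were seen. Arrays were not paired by replicate number in the main fits. Same-number correlations ran from -0.53 to 0.57 over 35 pairs, 7 of them over 0.1. They were not set against different-number pairs, so they cannot show whether the numbers pair arrays.

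Alternatives were leaving out the batch term, array plate as random block, other sets of arrays, another quantile normalization, centring, a filter on low genes, the mean of probe sets, a replicate block, 1 adjustment over 6 comparisons, and each replicate left out. Values without αTC1 24 h replicate 1 or 1 h replicate 2 were added after seeing the data. Ins1 and H1f0 were not analysed here.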

Additional observations from a re-analysis of the deposited data

Results flagged for a closer look

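In βTC3 with DMSO at 6 h, 1 array had an Ins2 level of 13.49. A gap of 0.744 of the group's range (13.19 to 13.49) set it apart from the other 9. It was the only such value among 34 groups of DMSO values of named genes tested. Chance gives such a value in about 1 in 20 groups, so 1 among 34 is not more than chance gives.

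Some genes responded to BRD-A94377914 differently in the 2 lines by the interaction test. At 24 h, αTC1 minus βTC3, C1qa differed by 2.23 (adjusted p = 6.74e-09), Mlxipl by 2.19 and Gsta4 by 2.17 (3.29 without the αTC1 24 h replicate 1 array), and Dpyd by -3.12 (adjusted p = 1.01e-14), Cdh17 by -2.67 and Tesc by -2.38. At 6 h Tacc2 differed by 2.68 (adjusted p = 6.64e-15), Meox2 by 2.65 and Gsta4 by 2.51, and Kcnk2 by -3.40 (adjusted p = 9.40e-31), Ptger4 by -2.83 and Insl6 by -2.79.

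Others responded differently at 24 h than at 6 h in the same line. In αTC1, 24 h minus 6 h, G6pc2 differed by 2.50, Kcnk2 by 2.27 (1.63 without the αTC1 24 h replicate 1 array) and Slc38a4 by 2.23, and Add3 by -1.89, Rab40b by -1.84 and 1700088E04Rik by -1.79. The last was at 3.48, 3.88 and 3.80 at 24 h with the compound and 5.11, 5.02 and 5.14 at 6 h. In βTC3 Dpyd differed by 2.92, Meox2 by 2.50 and Galr1 by 2.36, and Ptger4 by -2.51, Fscn1 by -2.30 and Opn3 by -2.20. Fscn1, an actin-bundling gene whose probe sets disagreed in sign, was at 6.01, 5.36 and 4.55 at 24 h and 7.06, 8.10 and 7.46 at 6 h. The adjusted p-values of these 12 differences ran from 1.97e-14 (Opn3) to 1.33e-05 (Rab40b).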

How the results depend on the processing

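Over 25 counts of called genes, 233 of 272 alternatives stayed within 1.5 times the reported count and 39 did not. Counts at 6 h against DMSO held best, with 2877 to 3068 in αTC1 and 3743 to 4009 in βTC3 when 1 compound array was left out, and 2222 to 2485 in βTC3 at 24 h. The αTC1 24 h count of 939 became 1751, 82 and 147 without replicates 1, 2 and 3, and 442 with only BRD-A94377914 and DMSO arrays.

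At 1 h the count of 11 in αTC1 became 6 with no batch term, 0 in the batches that hold the compound, 26 with plate as a random block, 7 without low genes, 24 with the mean of probe sets, 146 with 1 adjustment over 6 comparisons, and 0 to 6 with a replicate left out. In βTC3 the 11 became 6 with no batch term, 3 with only BRD-A94377914 and DMSO arrays, 3 in the compound's batches, 19 with plate as a block, 109 with 1 adjustment, and 3 to 8 with a replicate left out. The line difference at 1 h had 0 to 1 genes.

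Against SAHA at 24 h the 75 of αTC1 became 24 with the replicate block and 1 to 357 with a replicate left out, and the 141 of βTC3 became 48 to 149. Against BRD9773 the 283 of αTC1 became 105 with no batch term and 161 to 334 with a replicate left out, and the 464 of βTC3 121 and 223 to 292. Against BRD6929 the 421 of αTC1 became 159 and 88 to 691, and the 363 of βTC3 44, 230 in the compound's batches, and 67 to 269. The replicate block moved no other count by over 1.5 times, and DMSO titles hold no replicate number, so the comparison with DMSO had no block. The causes were not tested.

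Centring gave shares of higher calls of 38.0% in αTC1 at 6 h (54.2% as reported), 63.6% in the αTC1 difference between 24 h and 6 h (40.0%), 62.8% against BRD9773 in αTC1 at 24 h (19.1%) and 55.3% against SAHA there (30.7%). Of 3127 alternatives for 289 named gene results 2946 kept direction and call, 179 lost the call and 2 changed sign, both in βTC3 at 6 h, Actb at 0.01 with the mean of probe sets and Ins2 at 0.02 with another quantile normalization.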
